A study of Saccharomyces cerevisiae with 18 samples.

Results

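Poly(A) RNA of the nuclear respiratory chain and ATP synthase genes was followed in budding yeast, Saccharomyces cerevisiae, that carried histone H2A S121A or unchanged H2A and was kept without stress, heated or put in salt. The genes were taken by listed systematic name, leaving out those on chromosome VIII, which gave 38 of the 6746 features counted. They are 3 NADH dehydrogenases, 4 succinate dehydrogenase subunits, 8 subunits of the cytochrome bc1 complex, 2 cytochromes c, 8 subunits of cytochrome c oxidase and 13 subunits of ATP synthase. The rule uses no measured value. There were 6 groups of 3 libraries: S121A and wild-type (WT) cells after 10 min at 39 °C (heat), S121A and WT cells after 15 min in 0.4 M NaCl, and S121A and WT cells without stress at 30 °C, all grown to log phase in YPD, a rich glucose medium. All 18 libraries share the FY406 background: MATa cells with LEU2 in place of hta1-htb1 and TRP1 in place of hta2-htb2, and the alleles his3delta200, leu2delta1, ura3-52, trp1delta63 and lys2-128delta. The only HTA1-HTB1 genes are therefore on a plasmid, in WT cells too, and in S121A cells the plasmid gives H2A an alanine where WT H2A has a serine. The labels write the plasmid marker as HIS3, HIS4 and HIS5 for replicates 1, 2 and 3 of every group. They do not say whether replicates were separate cultures, so p-values measure the spread between these libraries. Counts per gene do not show the S121A change itself, so they are no check of the genotype labels.

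In the respiratory chain, electrons from NADH and succinate reach ubiquinone, pass through the bc1 complex to the small carrier cytochrome c, and are handed to oxygen by cytochrome c oxidase. The proton gradient built on the way drives ATP synthase, which has a membrane rotor, a catalytic head and a stalk that holds the head still. Budding yeast lacks the large proton-pumping NADH dehydrogenase of animals and uses single-chain enzymes in its place, and on glucose it ferments and keeps many respiratory genes low. The Hap2/3/4/5 complex, which binds CCAAT, is the known activator of many of these genes, and Msn2 and Msn4 activate stress genes through AGGGG. Several chain components come as a pair of paralogs, of which one is the main form in air and the other a minor or low-oxygen form.

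The results turn most on 3 such paralog pairs, so their promoters are shown, from 250 bases before to 50 bases after the first base of the start codon, read 5′ to 3′ on the coding strand from the RefSeq R64 genome. Capitals mark CCAAT and AGGGG on either strand (ATTGG and CCCCT on the other). The windows are chrV:79928-80227 (minus strand, CYC7, YEL039C), chrX:526085-526384 (plus, CYC1, YJR048W), chrIX:154972-155271 (plus, COX5B, YIL111W), chrXIV:531475-531774 (plus, COX5A, YNL052W), chrIV:302961-303260 (plus, NDE2, YDL085W) and chrXIII:556426-556725 (minus, NDE1, YMR145C).
CYC7: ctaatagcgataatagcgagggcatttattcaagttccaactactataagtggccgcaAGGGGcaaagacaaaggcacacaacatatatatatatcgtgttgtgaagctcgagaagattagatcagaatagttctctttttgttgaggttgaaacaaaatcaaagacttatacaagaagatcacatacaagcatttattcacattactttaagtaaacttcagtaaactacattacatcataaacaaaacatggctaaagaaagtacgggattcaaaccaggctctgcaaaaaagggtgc
CYC1: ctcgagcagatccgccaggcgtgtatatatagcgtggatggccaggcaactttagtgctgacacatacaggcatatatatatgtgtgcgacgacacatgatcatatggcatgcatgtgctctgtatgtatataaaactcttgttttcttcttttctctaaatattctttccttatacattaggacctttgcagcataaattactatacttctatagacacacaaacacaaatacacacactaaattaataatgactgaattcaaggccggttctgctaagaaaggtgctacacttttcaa
COX5B: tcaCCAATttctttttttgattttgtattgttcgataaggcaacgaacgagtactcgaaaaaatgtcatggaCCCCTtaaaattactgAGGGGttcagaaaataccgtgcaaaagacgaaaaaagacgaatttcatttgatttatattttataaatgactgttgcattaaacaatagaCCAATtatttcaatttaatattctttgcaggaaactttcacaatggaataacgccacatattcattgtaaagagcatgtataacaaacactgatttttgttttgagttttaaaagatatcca
COX5A: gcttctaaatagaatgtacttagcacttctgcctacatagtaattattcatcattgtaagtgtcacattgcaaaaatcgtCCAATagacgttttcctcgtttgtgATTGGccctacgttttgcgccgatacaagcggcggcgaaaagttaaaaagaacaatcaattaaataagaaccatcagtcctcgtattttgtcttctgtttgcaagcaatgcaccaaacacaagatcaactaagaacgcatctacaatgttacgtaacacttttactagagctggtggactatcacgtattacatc
NDE2: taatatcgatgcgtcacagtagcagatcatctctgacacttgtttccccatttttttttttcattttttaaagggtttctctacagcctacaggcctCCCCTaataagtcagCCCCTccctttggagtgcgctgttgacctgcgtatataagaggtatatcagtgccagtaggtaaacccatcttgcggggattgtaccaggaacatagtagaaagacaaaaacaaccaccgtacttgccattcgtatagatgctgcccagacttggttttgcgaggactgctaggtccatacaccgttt
NDE1: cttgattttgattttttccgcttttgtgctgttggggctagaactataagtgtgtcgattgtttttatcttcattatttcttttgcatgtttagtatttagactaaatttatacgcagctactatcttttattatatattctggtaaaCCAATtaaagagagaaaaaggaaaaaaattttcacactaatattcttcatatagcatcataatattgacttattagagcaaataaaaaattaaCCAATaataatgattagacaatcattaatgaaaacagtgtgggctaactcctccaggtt
The minor forms CYC7, COX5B and NDE2 hold AGGGG in this window, once in CYC7 and 2 times each in COX5B and NDE2. The major forms CYC1, COX5A and NDE1 do not, and CYC1 holds neither motif. Over all 38 genes, 18 (47.4%) hold AGGGG, against 21.6% of the 6001 nuclear protein-coding genes with a window, and 31 (81.6%) hold CCAAT, against 43.3%. In the 500 bases before the start codon AGGGG was in 47.4% of the members and 34.1% of all 6000 genes with that window, and CCAAT in 89.5% and 62.4%, so the distance from all genes was smaller there. By complex, those 500 bases held CCAAT in 7 of 8 bc1 genes, 13 of 13 ATP synthase genes and 1 of 2 cytochrome c genes. In the shorter window it was in 4 of 4 succinate dehydrogenase genes, 6 of 8 bc1 genes and 7 of 8 oxidase genes. There it was also in 12 of 13 ATP synthase genes and 0 of 2 cytochrome c genes. TTCNNGAA, a short form of the heat shock element, was in 13.2% of the members and 12.9% of all windows. ATTGTT, the core that the repressor Rox1 binds, was in 39.5% and 35.2%. No motif contains another, though ATTGG and ATTGTT share their opening letters. A match describes the letters and is not a binding site, and a missing match says nothing about a factor.

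Library totals ran from 39.57 to 53.03 M counts, and 3 counts corresponded to 0.0448 to 0.0898 CPM, the counts of a gene per M counts of a library scaled by the TMM factors of edgeR. All 38 genes passed the filter on low counts. The lowest count of a member was 120, for NDE2 in an unstressed WT library, and 4 of the 38 had under 1000 counts in some library. The 5 markers of MATa cells averaged 43.8 CPM or more in every group, and the 3 MATalpha markers between 0.514 and 13.8 CPM. Scaling mattered, and the 10 most counted genes took 13.5% to 22.4% of a library. With library totals alone in place of TMM, the median log2 fold change of all genes shifted by −0.61 in the S121A heat response, −0.39 in the WT heat response, −0.29 in the S121A NaCl response and −0.13 in the WT NaCl response. Responses below are therefore relative to the middle of all genes. Fewer cells of a kind and less RNA per cell cannot be told apart in such bulk libraries.

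Together the 38 genes stood at 13900 ± 386 CPM in heated S121A cells and 13850 ± 819 CPM in heated WT cells, 8416 ± 94.5 (S121A) and 8539 ± 398 CPM (WT) in salt, and 6048 ± 201 (S121A) and 6000 ± 240.2 CPM (WT) without stress (SD, n = 3 in each group). Their sum was thus 2.30 times (S121A) and 2.31 times (WT) as high in heat as without stress, and 1.39 times (S121A) and 1.42 times (WT) as high in salt. The complexes did not move alike. The summed CPM of succinate dehydrogenase was 4.26 times (S121A) and 3.66 times (WT) as high in heat as without stress, and that of the bc1 complex 3.17 times (S121A) and 3.34 times (WT). The ratio was 1.71 (S121A) and 1.93 (WT) for cytochrome c oxidase, and 1.72 (S121A) and 1.79 (WT) for ATP synthase. In salt the same ratios were 2.56 (S121A) and 2.70 (WT) for succinate dehydrogenase and 1.72 (S121A) and 1.87 (WT) for the bc1 complex. They were 1.13 (S121A) and 1.24 (WT) for cytochrome c oxidase, and 1.14 in both genotypes for ATP synthase. For the NADH dehydrogenases the ratios were 2.45 (S121A) and 1.92 (WT) in heat and 1.26 (S121A) and 1.03 (WT) in salt. For the 2 cytochromes c they were 5.25 (S121A) and 6.5 (WT) in heat and 2.34 (S121A) and 1.9 (WT) in salt. Sums follow the most counted genes. In heat the ATP synthase gene ATP2 alone had 2846 of 5571 CPM (S121A) and 2750 of 5596 CPM (WT). In salt the NADH dehydrogenase sums combined rises of NDI1 and NDE2 with a fall of NDE1. All these ratios depend on the scaling. As shares of all counts of a library, the 38 genes together stood 1.5 times (S121A) and 1.76 times (WT) as high in heat as without stress, and 1.14 times (S121A) and 1.30 times (WT) as high in salt. On that scale the NADH dehydrogenases were at 1.03 (S121A) and 0.941 (WT) in salt. The S121A ratios in salt were below 1 for cytochrome c oxidase, at 0.92, and for ATP synthase, at 0.933. The WT ratios of these 2 complexes in salt were 1.13 and 1.04. Those of heat were 1.12 (S121A) and 1.48 (WT) for cytochrome c oxidase and 1.13 (S121A) and 1.37 (WT) for ATP synthase, and 2.79 (S121A) and 2.78 (WT) for succinate dehydrogenase.

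Levels per coding length, in CPM per 1000 coding bases (CPM/kb), differed widely among subunits of 1 complex. Coding lengths of the members ran from 180 (COX9) to 1923 bases (SDH1), and untranslated parts of the transcripts were left out. Whether short and long transcripts were recovered equally was not tested, so these levels are only a rough guide to relative abundance. In ATP synthase, ATP2 (YJR121W), the catalytic beta subunit, had the highest level in every group, 1853 ± 110.3 CPM/kb in heated S121A cells and 1791 ± 199 in heated WT cells, against 890.5 ± 58.0 (S121A) and 908 ± 64.7 (WT) without stress (SD, n = 3). ATP20 (YPR020W), subunit g of the membrane part, had the lowest, 69.6 ± 34.0 (S121A) and 76.9 ± 19.3 (WT) in heat and 95.8 ± 8.77 (S121A) and 64.7 ± 4.32 (WT) without stress. The 2 were apart by 26.6 times (S121A) and 23.3 times (WT) in heat, and by 9.29 times (S121A) and 14.0 times (WT) without stress. In heat and without stress the bc1 subunits were the closest together of any complex with more than 2 genes, with the highest 2.67 times (S121A) and 2.40 times (WT) the lowest in heat, and 2.76 times (S121A) and 2.25 times (WT) without stress. Among oxidase subunits, COX5B was the lowest without stress, at 51.5 ± 4.29 (S121A) and 57.8 ± 2.00 (WT) CPM/kb, and COX9 (YDL067C), a small subunit, the highest, at 650.1 ± 44.6 (S121A) and 638 ± 31.7 (WT).

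**Figure D1:**
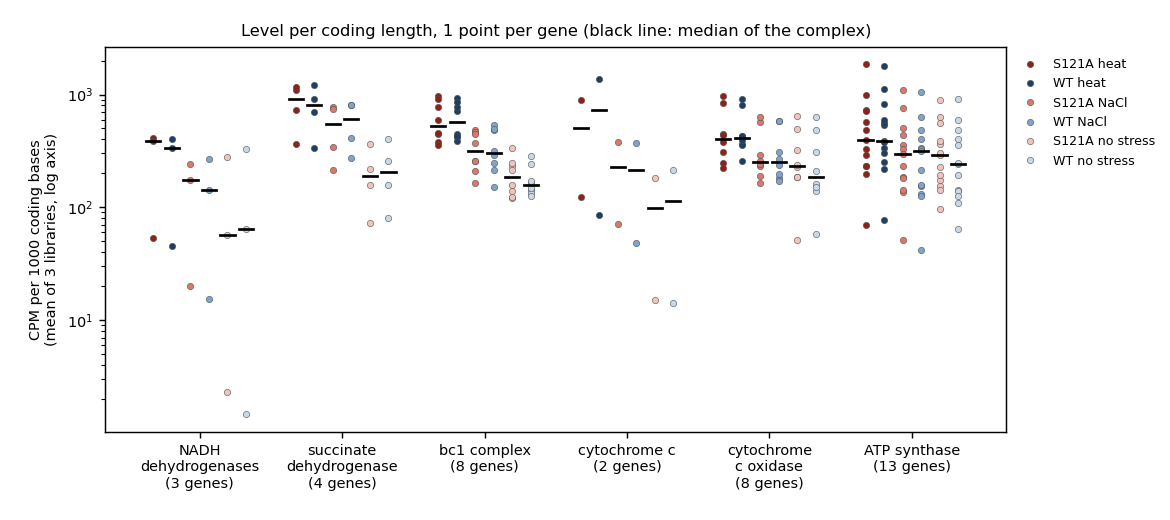
Level in CPM per 1000 coding bases (vertical log axis) by complex along the horizontal axis, with the 6 groups side by side and coloured within each complex, 1 point per gene for the mean of 3 libraries and a black line for the median of the complex. The lowest points, those of NDE2 among the NADH dehydrogenases, lie far higher in heat and salt than without stress, and ATP2 is the top and ATP20 the bottom point of ATP synthase in every group.

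Relative to the middle of all genes, heat raised nearly the whole set. In S121A cells 34 of 38 genes rose and 1 fell, and in WT cells likewise 34 rose and 1 fell, at a Benjamini-Hochberg adjusted p under 0.05 in edgeR's quasi-likelihood test, which is used for all genes below. Of all 6395 tested genes 80% (S121A) and 79.9% (WT) were called, 40.3% (S121A) and 40.6% (WT) as higher and 39.7% (S121A) and 39.3% (WT) as lower, so a call alone is common here but 34 of 38 in the upward direction is above that background. The median log2 fold change of the members was 0.97 in S121A cells and 1.28 in WT cells, against −0.01 (S121A) and 0.02 (WT) over all tested genes. At least 2-fold changes that were also called numbered 19 of 38 in S121A and 24 of 38 in WT cells, against 39.7% (S121A) and 40.9% (WT) of all genes. The gene that fell was in both genotypes CYC1, the main cytochrome c. The libraries of heat and no stress did not overlap for 35 of 38 genes in either genotype, against 81.1% of all genes in both. With library totals alone in place of TMM, 20 members were higher and 7 lower in heated S121A cells.

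**Figure D2:**
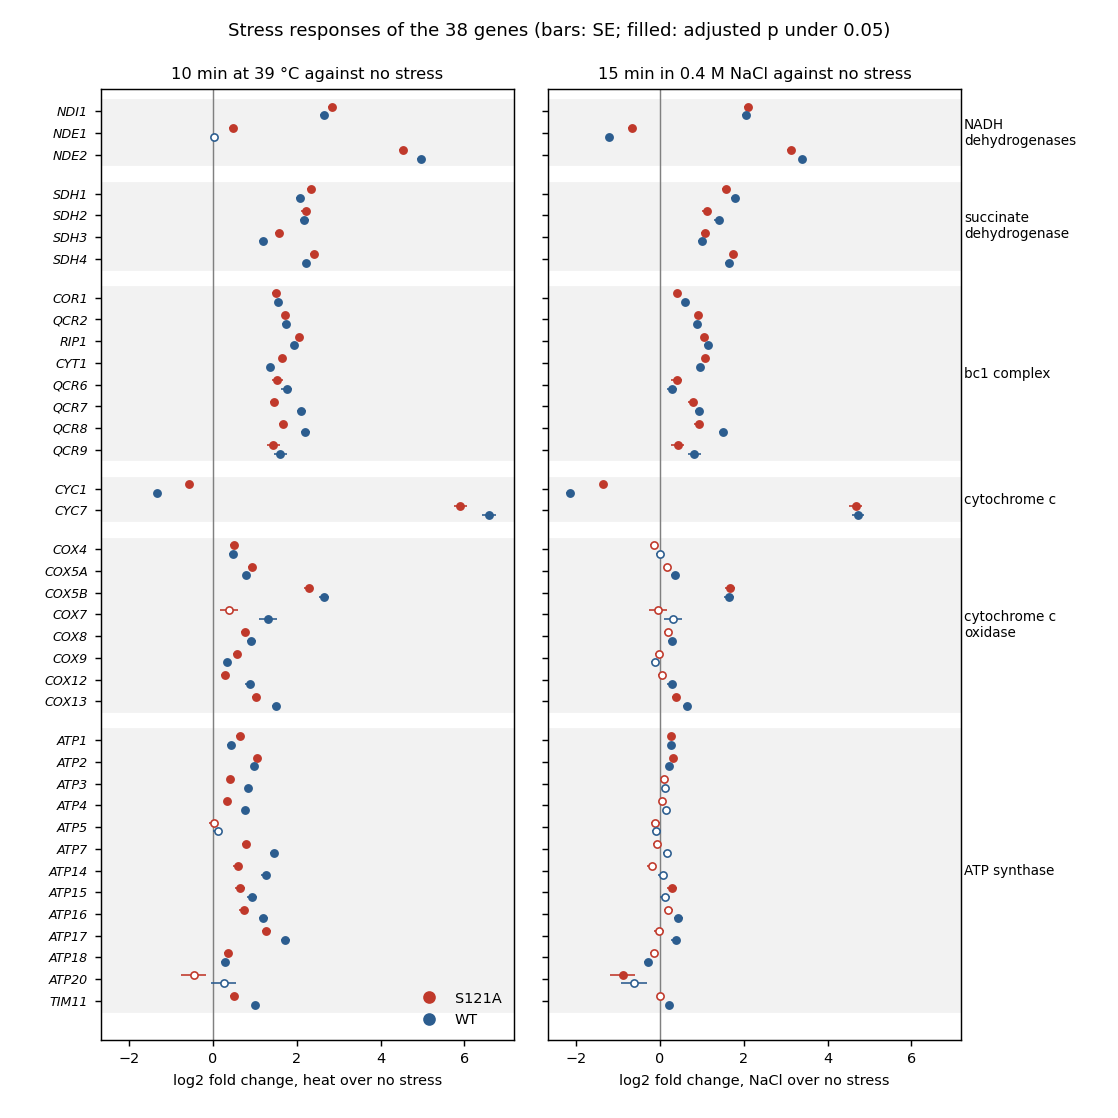
Log2 fold change of each gene over no stress of the same genotype (horizontal axis) after heat (left panel) and NaCl (right panel), S121A in red above WT in blue, with bars for SE and filled points for adjusted p under 0.05. CYC7 and NDE2 lie farthest to the right and CYC1 to the left of 0 in both panels, and most ATP synthase points lie near 0 in NaCl and to the right of it in heat.

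All 4 succinate dehydrogenase genes rose at least 2-fold in heat. SDH4 (YDR178W), a membrane anchor, stood at 594, 646 and 663 CPM in the 3 heated S121A libraries and 754, 603 and 619.5 CPM in the heated WT libraries, against 123, 115 and 123 CPM (S121A) and 142, 142 and 139 CPM (WT) without stress. Every heated library was above every unstressed one, with log2 fold changes (± SE) of 2.40 ± 0.090 in S121A (adjusted p = 1.24e-15) and 2.23 ± 0.089 in WT cells (adjusted p = 3.07e-15), the highest of the complex in both. SDH3 (YKL141W), the cytochrome b anchor, changed least, by 1.58 ± 0.090 in S121A cells (adjusted p = 1.38e-12) and 1.18 ± 0.089 in WT cells (adjusted p = 1.38e-10). SDH1 (YKL148C), the flavoprotein that oxidises succinate, and SDH2 (YLL041C), the iron-sulfur subunit, rose by 2.33 and 2.22 in S121A cells and by 2.08 and 2.17 in WT cells.

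In the bc1 complex all 8 genes rose at least 2-fold in heat in both genotypes. RIP1 (YEL024W), the Rieske iron-sulfur protein, had 631, 644 and 595 CPM in heated S121A cells and 691, 563 and 550.1 CPM in heated WT cells, against 153, 144 and 153 (S121A) and 163, 151 and 159 CPM (WT) without stress. It had the largest rise of the complex in S121A cells, 2.05 ± 0.083 (adjusted p = 4.67e-15), and QCR9 (YGR183C), a small subunit, the smallest, 1.44 ± 0.16 (adjusted p = 8.42e-08). In WT cells the largest was QCR8 (YJL166W), a small subunit, at 2.20 ± 0.10 (adjusted p = 2.68e-14), and the smallest CYT1 (YOR065W), cytochrome c1, at 1.37 ± 0.077 (adjusted p = 1.03e-12). The core subunits COR1 (YBL045C) and QCR2 (YPR191W) rose by 1.49 and 1.71 in S121A cells and by 1.56 and 1.73 in WT cells.

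Cytochrome c oxidase rose less, in 7 of 8 genes in S121A and 8 of 8 in WT cells, with medians of 0.67 (S121A) and 0.89 (WT). COX5B, the low-oxygen form of subunit 5, led with 2.28 ± 0.12 in S121A cells (adjusted p = 2.15e-13) and 2.64 ± 0.12 in WT cells (adjusted p = 1.87e-14). The smallest change in S121A cells was that of COX12 (YLR038C), a small subunit, 0.29 ± 0.10 (adjusted p = 0.015), and in WT cells that of COX9, 0.34 ± 0.089 (adjusted p = 0.00166). COX8 (YLR395C), also small, rose by 0.77 (S121A) and 0.91 (WT). COX7 (YMR256C), another small subunit, did not pass in S121A cells at 0.38 ± 0.22 (adjusted p = 0.117). Its heated S121A libraries were far apart, at 63.1, 74.0 and 34.2 CPM, and overlapped the unstressed ones at 37.3, 43.5 and 50.7 CPM.

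In ATP synthase 11 of 13 genes rose in heat in each genotype, with medians of 0.59 in S121A and 0.93 in WT cells. ATP17 (YDR377W), subunit f of the membrane part, had 239, 236 and 192 CPM in heated S121A cells and 241, 267 and 242 CPM in heated WT cells, against 90.6, 93.7 and 91.6 (S121A) and 75.7, 75.5 and 75.3 CPM (WT) without stress. Every heated library was above every unstressed one, and its change was the largest of the complex, 1.27 ± 0.12 in S121A cells (adjusted p = 3.31e-09) and 1.73 ± 0.12 in WT cells (adjusted p = 2.69e-11). ATP2 was the only other ATP synthase gene to rise at least 2-fold in S121A cells, at 1.06 ± 0.084. ATP5 (YDR298C), the stalk protein that ties the catalytic head to the stator, did not pass in either genotype, and its libraries overlapped, at 279.9, 269.5 and 206 CPM in heated and 256, 237 and 254 CPM in unstressed S121A cells. ATP20 did not pass either, at −0.46 ± 0.30 in S121A (adjusted p = 0.171) and 0.25 ± 0.30 in WT cells (adjusted p = 0.452). The lowest value of the complex in WT cells was that of ATP5, 0.11 ± 0.11 (adjusted p = 0.36).

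Several of the small heat responses depended on the scaling. With library totals alone, the S121A heat values of NDE1, COX4 (YGL187C), COX9, COX12, ATP3 (YBR039W), ATP4 (YPL078C), ATP5, ATP14 (YLR295C), ATP18 (YML081C-A) and TIM11 (YDR322C-A) and the WT heat values of NDE1, COX9, ATP5 and ATP18 turned negative, with 20 members higher and 7 lower in S121A cells and 3 lower in WT cells. The rises of succinate dehydrogenase, the bc1 complex, NDI1 (YML120C), NDE2, CYC7 and COX5B and the fall of CYC1 kept their direction under that scaling.

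Salt changed the same set in a narrower way. In S121A cells 20 genes rose and 3 fell, with 71% of all tested genes called, 35.8% as higher and 35.3% as lower. In WT cells 25 rose and 3 fell, with 73.6% called, 36.3% as higher and 37.2% as lower. Called changes of at least 2-fold numbered 11 of 38 in each genotype, against 26.4% (S121A) and 30.1% (WT) of all genes. The member medians were 0.27 in S121A and 0.33 in WT cells, against −0.01 over all genes in both. Heat and salt were compared with the same unstressed libraries, so their responses are not independent of each other. Libraries did not overlap for 29 of 38 genes in either genotype, against 77.4% (S121A) and 77.7% (WT) of all genes, so by that count the members did not stand apart from the background.

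In salt all 4 succinate dehydrogenase genes and all 8 bc1 genes rose in both genotypes. SDH1 had 404, 425 and 396 CPM in salt-treated S121A cells and 559.7, 541 and 482 CPM in salt-treated WT cells, against 143, 128 and 145 (S121A) and 162, 142 and 158 CPM (WT) without stress. It led its complex in WT cells at 1.78 ± 0.087 (adjusted p = 1.54e-13), while in S121A cells SDH4 led at 1.75 ± 0.088 (adjusted p = 2.68e-13), and SDH3 was lowest in both, at 1.06 ± 0.089 in S121A (adjusted p = 1.1e-09) and 1.00 ± 0.089 in WT cells (adjusted p = 2.68e-09). In the bc1 complex CYT1 led in S121A cells at 1.08 ± 0.077 (adjusted p = 8.88e-11) and QCR8 in WT cells at 1.51 ± 0.098 (adjusted p = 1.73e-11). QCR6 (YFR033C), the acidic hinge subunit, changed least, by 0.39 ± 0.12 in S121A (adjusted p = 0.00764) and 0.28 ± 0.12 in WT cells (adjusted p = 0.0457).

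Cytochrome c oxidase and ATP synthase as a whole moved little in salt. Of the oxidase genes 2 of 8 rose in S121A cells and 5 of 8 in WT cells, led by COX5B at 1.67 ± 0.11 in S121A (adjusted p = 4.53e-11) and 1.64 ± 0.11 in WT cells (adjusted p = 4.98e-11). The lowest were COX4, subunit IV, at −0.15 ± 0.088 in S121A cells (adjusted p = 0.131) and COX9 at −0.12 ± 0.089 in WT cells (adjusted p = 0.236), neither of which passed. In ATP synthase 3 genes rose and 1 fell of 13 in S121A cells, and 5 rose and 1 fell in WT cells. ATP2 was highest in S121A cells at 0.31 ± 0.083 (adjusted p = 0.00236), and ATP16 (YDL004W), the delta subunit of the rotor stalk, in WT cells at 0.44 ± 0.11 (adjusted p = 0.00112). ATP20 was lowest in both, at −0.89 ± 0.30 in S121A cells (adjusted p = 0.0163) and −0.63 ± 0.31 in WT cells, where it did not pass (adjusted p = 0.0792). Its salt libraries had 22.9, 15.3 and 15.7 CPM in S121A cells, all below the 30.6, 36.7 and 32.8 CPM without stress. With library totals alone, the S121A salt values of ATP1 (YBL099W), ATP3, ATP4, ATP15 (YPL271W) and TIM11 turned negative, and 13 members were higher and 13 lower in S121A cells and 5 lower in WT cells.

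Set directly against salt, heat was higher for 35 of 38 genes and lower for 0 in each genotype. Of all tested genes 64.2% (S121A) and 66.1% (WT) were called, 30.6% (S121A) and 32.9% (WT) as higher and 33.6% (S121A) and 33.2% (WT) as lower in heat. In each genotype 8 of 38 differed by at least 2-fold, against 16.5% (S121A) and 19.7% (WT) of all genes. The member medians were 0.66 in S121A and 0.78 in WT cells, against −0.03 (S121A) and 0.00 (WT) over all genes. Libraries did not overlap for 34 (S121A) and 35 (WT) members, against 66.6% (S121A) and 64.5% (WT) of all genes. The genes that did not pass were COX7, ATP5 and ATP20 in S121A cells and SDH3, ATP1 and ATP5 in WT cells. ATP1, the alpha subunit of the head, had 0.15 ± 0.077 in WT cells (adjusted p = 0.0887), and SDH3 0.18 ± 0.088 (adjusted p = 0.0754). ATP17 stood out in ATP synthase with 1.30 ± 0.12 in S121A cells (adjusted p = 7.35e-09) and 1.36 ± 0.12 in WT cells (adjusted p = 3.15e-09), and QCR6 in the bc1 complex with 1.14 ± 0.12 in S121A (adjusted p = 1.15e-07) and 1.48 ± 0.12 in WT cells (adjusted p = 2.42e-09). Under library totals alone, COX12, ATP3 and ATP4 turned negative in S121A cells, where the median of all genes shifted by −0.32.

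CYC7 and NDE2, the minor forms of 2 of the 3 paralog pairs, had the 2 largest changes of the set in all 4 responses. The sources used here do not say how reads that map to more than 1 gene were counted, so the values of similar paralogs carry that uncertainty. CYC7, the minor cytochrome c, had 302, 269 and 340.1 CPM in heated S121A cells and 350.3, 528 and 518 CPM in heated WT cells, against 5.03, 5.58 and 4.70 (S121A) and 4.94, 4.32 and 5.31 CPM (WT) without stress. In salt it had 119, 134 and 137 CPM in S121A cells and 126, 122 and 137 CPM in WT cells. All stressed libraries were far above all unstressed ones, and the heated S121A libraries were all below the heated WT libraries, by a small step at WT heat replicate 1. In heat CYC7 was 59.6-fold higher in S121A cells (5.90 ± 0.16, adjusted p = 7.45e-18) and 95.8-fold higher in WT cells (6.58 ± 0.16, adjusted p = 1.44e-18). In salt it was 25.4-fold higher in S121A cells (4.67 ± 0.15, adjusted p = 2.25e-16) and 26.4-fold higher in WT cells (4.72 ± 0.15, adjusted p = 1.63e-16).

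CYC1 had 41.0, 37.6 and 44.1 CPM in heated S121A cells and 30.4, 25.7 and 28.5 CPM in heated WT cells, against 65.1, 59.4 and 57.2 (S121A) and 73.3, 70.4 and 69.5 CPM (WT) without stress. In salt it had 22.0, 23.6 and 25.3 CPM in S121A cells and 17.3, 16.1 and 14.7 CPM in WT cells. Every stressed library was below every unstressed one. The change in heat was −0.57 ± 0.083 in S121A (adjusted p = 3.3e-06) and −1.33 ± 0.085 in WT cells (adjusted p = 7.79e-12), and in salt −1.36 ± 0.085 in S121A (adjusted p = 1.04e-11) and −2.15 ± 0.088 in WT cells (adjusted p = 7.22e-15). Per coding length the CYC7 to CYC1 ratio was 7.16 ± 0.272 in heated S121A and 16.2 ± 4.53 in heated WT cells (SD, n = 3). It was 5.30 ± 0.158 (S121A) and 7.78 ± 1.09 (WT) in salt, and 0.0815 ± 0.00828 (S121A) and 0.0660 ± 0.00728 (WT) without stress. CYC1 was thus the more abundant transcript without stress and CYC7 in both stresses.

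**Figure D3:**
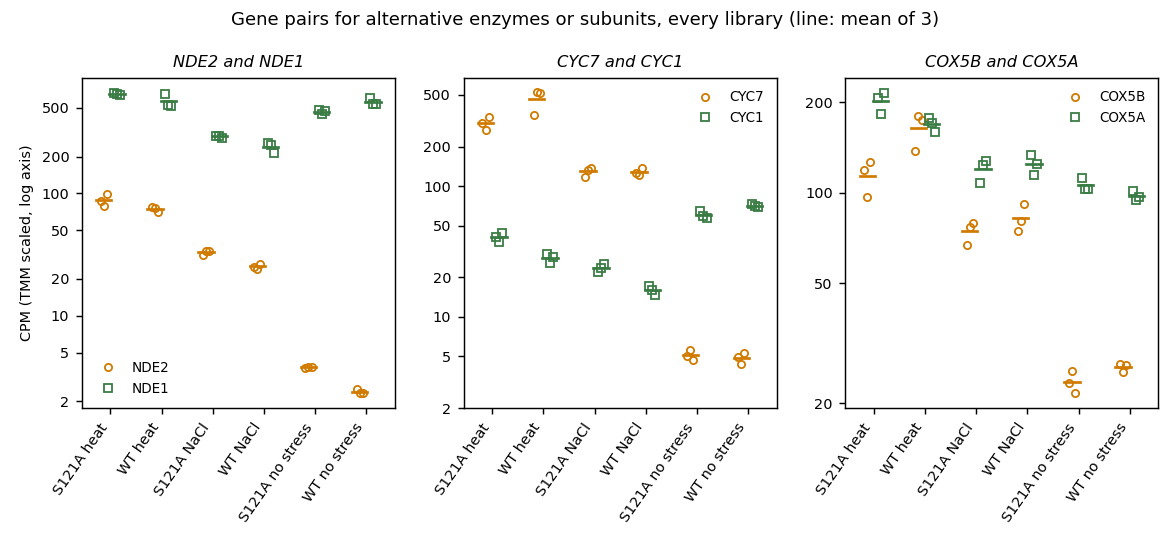
CPM of the minor and the major form of each paralog pair (vertical log axis) in every library, by group along the horizontal axis, 1 panel per pair, with a line for the mean of 3 libraries. The points of CYC7 lie above those of CYC1 in the 4 stressed groups and below them in both unstressed groups, while NDE2 stays below NDE1 in every library.

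The external NADH dehydrogenases, which oxidise NADH of the cytosol, kept their order. NDE2, the minor form, had 86.5, 78.8 and 98.7 CPM in heated S121A cells and 77.3, 75.7 and 71.0 CPM in heated WT cells, against 3.76, 3.81 and 3.82 (S121A) and 2.52, 2.36 and 2.33 CPM (WT) without stress. In salt it had 31.2, 34.0 and 33.8 CPM in S121A cells and 25.1, 24.3 and 26.7 CPM in WT cells. Within each condition all S121A libraries were above all WT libraries. The rise in heat was 4.53 ± 0.090 in S121A (adjusted p = 1.03e-19) and 4.96 ± 0.095 in WT cells (adjusted p = 3.76e-20), and in salt 3.12 ± 0.087 in S121A (adjusted p = 2.25e-17) and 3.40 ± 0.092 in WT cells (adjusted p = 1.03e-17). NDE1, the major form, had 658, 648 and 636 CPM in heated S121A cells and 644, 530.1 and 522 CPM in heated WT cells, against 483, 444 and 469.8 (S121A) and 598, 533 and 534 CPM (WT) without stress. In salt it had 297, 297 and 282 CPM in S121A cells and 259, 250 and 212 CPM in WT cells, all below the unstressed libraries. It fell in salt in both genotypes, at −0.68 ± 0.088 in S121A (adjusted p = 8.06e-07) and −1.21 ± 0.089 in WT cells (adjusted p = 1.17e-10). In heat it rose in S121A cells at 0.47 ± 0.087 (adjusted p = 5.24e-05) and was at 0.026 ± 0.087 in WT cells, where it did not pass (adjusted p = 0.787). The NDE2 to NDE1 ratio per length was 0.140 (S121A) and 0.137 (WT) in heat, 0.117 (S121A) and 0.110 (WT) in salt, and 0.00839 (S121A) and 0.00445 (WT) without stress. NDI1, which oxidises NADH of the matrix, rose by 2.84 (S121A) and 2.64 (WT) in heat and by 2.09 (S121A) and 2.04 (WT) in salt.

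COX5B had 119, 96.4 and 126 CPM in heated S121A cells and 138, 179 and 175 CPM in heated WT cells, against 23.3, 25.5 and 21.6 (S121A) and 27.1, 25.3 and 26.7 CPM (WT) without stress. In salt it had 67.3, 77.1 and 79.3 CPM in S121A cells and 74.6, 80.2 and 91.9 CPM in WT cells. Stressed and unstressed libraries did not overlap, and in heat the S121A libraries were all below the WT libraries. COX5A, the form used in air, had 206, 182 and 214 CPM in heated S121A cells and 177, 171 and 159 CPM in heated WT cells, against 112, 103 and 103 (S121A) and 101, 94.5 and 96.5 CPM (WT) without stress. In salt it had 108, 124 and 128 CPM in S121A cells and 133, 115 and 125 CPM in WT cells. Its rise in heat was 0.92 ± 0.082 in S121A (adjusted p = 2.13e-09) and 0.80 ± 0.082 in WT cells (adjusted p = 2.06e-08). In salt it was at 0.18 ± 0.082 in S121A cells, where it did not pass (adjusted p = 0.0617), and at 0.35 ± 0.082 in WT cells (adjusted p = 0.000722). The COX5B to COX5A ratio per length was 0.572 (S121A) and 0.988 (WT) in heat, 0.631 (S121A) and 0.674 (WT) in salt, and 0.225 (S121A) and 0.274 (WT) without stress. Of the 6 groups, heated WT cells came closest to equal levels of both.

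The ratio within a library does not depend on the scaling. On log2 ratios 9 exact permutation tests were run, 3 per pair, with Benjamini-Hochberg adjustment over the 9. The pairs are among members chosen with earlier results of these data known, so the tests serve as a description. Over both genotypes, the log2 ratio was higher in heat than without stress by 7.18 for CYC7 to CYC1, 4.49 for NDE2 to NDE1 and 1.59 for COX5B to COX5A, and higher in salt by 6.45, 4.20 and 1.39. Each of these 6 had p = 0.005, two-sided, the smallest that the 400 exact arrangements can give (adjusted p = 0.00643). The difference of S121A minus WT over the 3 conditions was −0.38 for COX5B to COX5A (exact permutation p = 0.00275, adjusted p = 0.00643), with −0.77 in heat, −0.09 in salt and −0.29 without stress. It was −0.46 for CYC7 to CYC1 (exact permutation p = 0.0288, adjusted p = 0.0288), but −1.13 in heat, −0.54 in salt and 0.31 without stress, so the sign was not the same throughout. It was 0.35 for NDE2 to NDE1 (exact permutation p = 0.023, adjusted p = 0.0259), with 0.03 in heat, 0.10 in salt and 0.91 without stress. The CYC7 to CYC1 value did not pass when any 1 of the heated S121A libraries was left out.

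Without stress, S121A cells had higher counts than WT cells for 9 of 38 genes and lower counts for 3, with 23.1% of all tested genes called, 9.05% as higher and 14.1% as lower. The member median was 0.11, against −0.02 over all genes. No called change reached 2-fold, against 1.78% of all genes. NDE2 had the largest, 0.66 ± 0.098 (adjusted p = 8.75e-05), and its 3 S121A libraries were all above the 3 WT libraries. QCR8 followed, with 67.4, 72.1 and 72.2 CPM in S121A cells and 47.3, 49.2 and 48.7 CPM in WT cells, again without overlap, at 0.54 ± 0.097 (adjusted p = 0.0005). ATP7 (YKL016C), subunit d of the stalk, had 99.6, 103 and 99.8 CPM in S121A cells and 71.1, 69.4 and 79.3 CPM in WT cells, at 0.46 ± 0.092 (adjusted p = 0.00131).

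The other unstressed genes that were higher in S121A cells were COX12 at 0.39 ± 0.10 (adjusted p = 0.01), QCR7 (YDR529C), a subunit of the bc1 complex, at 0.39 ± 0.10 (adjusted p = 0.0111), and TIM11, subunit e of ATP synthase, at 0.37 ± 0.079 (adjusted p = 0.00223). ATP3, the gamma subunit of the rotor stalk, was at 0.31 ± 0.069 (adjusted p = 0.00305), COX13 (YGL191W), a small oxidase subunit, at 0.29 ± 0.092 (adjusted p = 0.0262), and ATP4, subunit b of the stalk, at 0.23 ± 0.068 (adjusted p = 0.0214). For all 9 genes every S121A library was above every WT library. The 3 lower genes were CYT1 at −0.30 ± 0.076 (adjusted p = 0.00728), NDE1 at −0.25 ± 0.087 (adjusted p = 0.0413) and CYC1 at −0.23 ± 0.082 (adjusted p = 0.0481). None of the 4 succinate dehydrogenase genes passed, and their values ran from −0.23 (SDH4) to 0.018 (SDH2). Libraries did not overlap for 23 of 38 members, against 49.9% of all genes. With library totals alone the median of all genes shifted by 0.17, and 18 members were higher and 0 lower, so the 3 falls depend on the scaling.

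**Figure D4:**
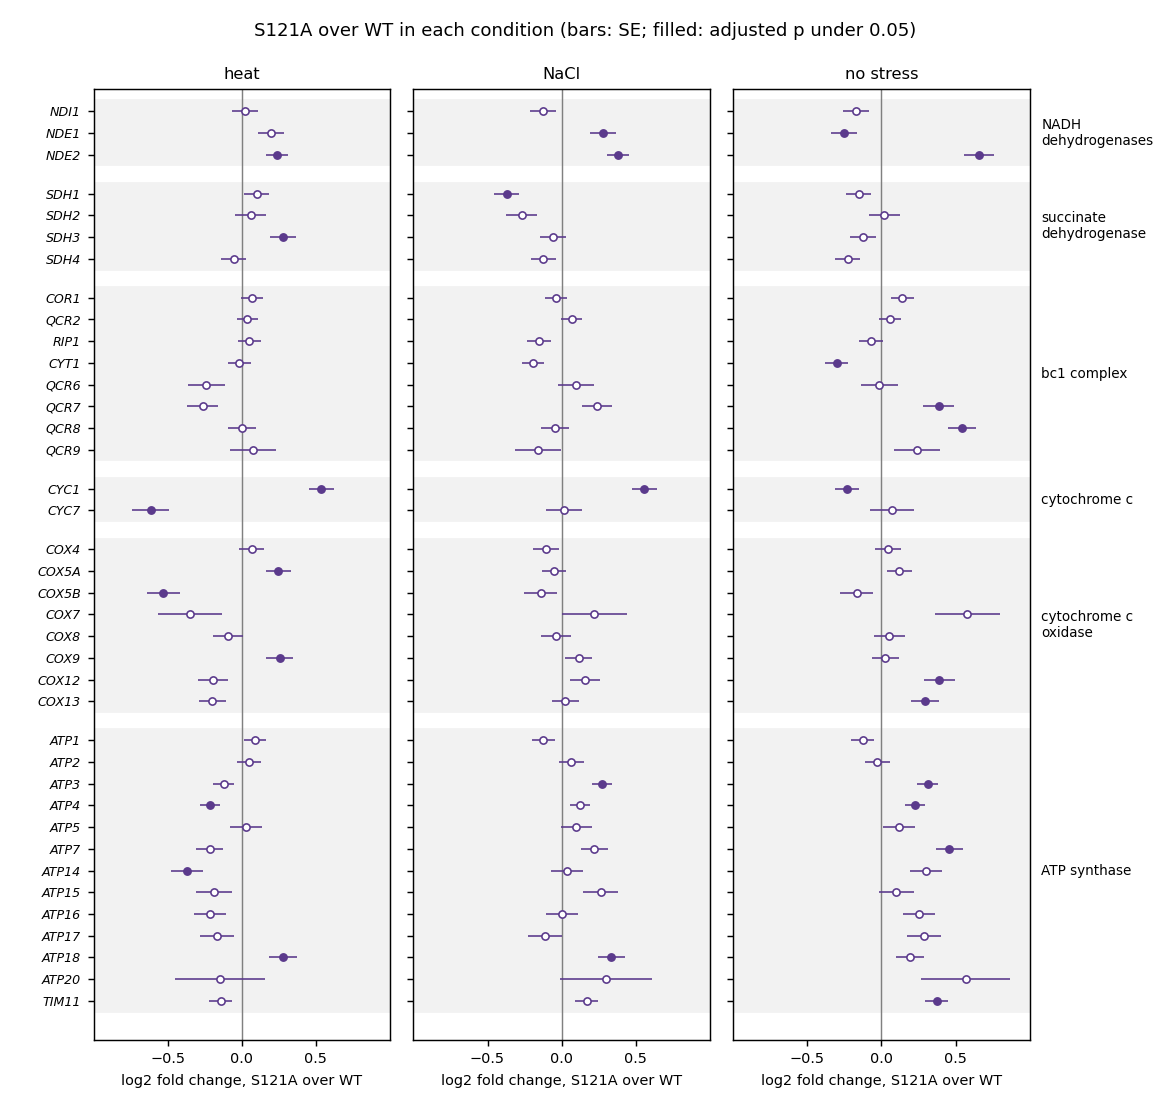
Log2 fold change of each gene in S121A over WT cells (horizontal axis) in heat (left), NaCl (middle) and no stress (right), with bars for SE and filled points for adjusted p under 0.05. Differences are small beside the stress responses, and CYC1 and CYC7 lie on opposite sides of 0 in heat.

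In salt, 5 members were higher and 1 lower in S121A than in WT cells, with 23.8% of all tested genes called, 14.6% as higher and 9.19% as lower. The member median was 0.03, against 0.00 over all genes, and libraries did not overlap for 13 members, against 38.7% of all genes. The share called was below the background, and 0 of 38 differed by at least 2-fold, against 2.88% of all genes. The higher genes were CYC1 at 0.56 ± 0.087 (adjusted p = 7.72e-05), NDE2 at 0.38 ± 0.077 (adjusted p = 0.00104), ATP18, a small membrane subunit of ATP synthase, at 0.34 ± 0.094 (adjusted p = 0.0122), NDE1 at 0.28 ± 0.088 (adjusted p = 0.0248) and ATP3 at 0.27 ± 0.069 (adjusted p = 0.00637). SDH1 was lower, at −0.37 ± 0.085 (adjusted p = 0.00311), and its S121A salt libraries were all below its WT salt libraries. No bc1 or oxidase gene passed, with values from −0.19 (CYT1) to 0.24 (QCR7). Same-numbered salt libraries of S121A and WT cells deviated together, with correlations of 0.315, 0.121 and 0.212. With the replicate number as a block in a fit of these 6 libraries, chosen after the data were seen, 8 members were higher and 1 lower, and the 3 added were COX7 at 0.23 (adjusted p = 0.0394), ATP15 at 0.26 (adjusted p = 0.0191) and ATP20 at 0.29 (adjusted p = 0.0194). With that block in the fit of all 18 libraries, CYT1 passed as lower (adjusted p = 0.0409).

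In heat, 6 members were higher and 4 lower in S121A than in WT cells, with 33.7% of all tested genes called, 19.5% as higher and 14.2% as lower. The member median was −0.01, against 0.00 over all genes, and libraries did not overlap for 9 members, against 35.7% of all genes. At least 2-fold were 0 of 38, against 4.14% of all genes. CYC1 was higher, at 0.54 ± 0.085 (adjusted p = 6.14e-05), with no overlap, and CYC7 lower, at −0.61 ± 0.12 (adjusted p = 0.000738). COX5A was higher, at 0.25 ± 0.082 (adjusted p = 0.0244), and COX5B lower, at −0.53 ± 0.11 (adjusted p = 0.000982). The other higher genes were SDH3 at 0.28 ± 0.088 (adjusted p = 0.0208), ATP18 at 0.28 ± 0.094 (adjusted p = 0.0275), COX9 at 0.26 ± 0.089 (adjusted p = 0.0328) and NDE2 at 0.24 ± 0.075 (adjusted p = 0.0194). The other lower genes were ATP14, subunit h of the stalk, at −0.37 ± 0.11 (adjusted p = 0.0124) and ATP4 at −0.21 ± 0.068 (adjusted p = 0.0207). No bc1 gene passed, with values from −0.26 (QCR7) to 0.075 (QCR9). For 16 members WT heat replicate 1 was the lowest of the 3 heated WT libraries, and for 22 it was the highest. For CYC7 this library had 350.3 CPM against 528 and 518 CPM in the others. With only the heated libraries in the fit, 1 member was higher and 2 were lower. Without WT heat replicate 1 there were 8 members higher and 9 lower, and without WT heat replicate 2 there were 2 higher and 2 lower. The higher members numbered 1 without WT heat replicate 3, 2 without S121A heat replicate 1 and 3 without S121A heat replicate 3.

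The difference between the salt responses of S121A and WT cells passed for 3 members, 2 higher and 1 lower, with 8.35% of all tested genes called, 6.82% as higher and 1.53% as lower. A difference of at least 2-fold was called for 0 of 38, against 1.41% of all genes. CYC1 fell less in S121A cells, with a difference of 0.79 ± 0.12 (adjusted p = 0.000162), and so did NDE1, at 0.53 ± 0.12 (adjusted p = 0.0089). QCR8 rose less, at −0.59 ± 0.14 (adjusted p = 0.00871). The salt levels of QCR8 overlapped between genotypes, at 138, 131 and 131 CPM in S121A cells and 167, 119.5 and 127 CPM in WT cells, and its unstressed levels did not. No oxidase or ATP synthase gene passed.

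The difference between the heat responses passed for 16 members, 3 higher and 13 lower in S121A than in WT cells. Of all tested genes 22.6% were called, 15.5% as higher and 7.08% as lower. With TMM, most of the called members thus lay on the side that was less frequent over all genes. The member median was −0.16, against 0.05 over all genes, and 0 of 38 differed by at least 2-fold, against 3.28% of all genes. With library totals alone, lower calls were the more frequent over all genes, 1229 against 503 higher. With TMM, genes of up to 300 coding bases were called higher in 6.25% and lower in 14.3%. For longer ones up to 600 bases these shares were 10.8% and 12.1%. Above 600 bases higher calls were the more frequent, at 16.3% against 8.85% up to 1200 bases and 19.5% against 4.92% beyond. The 13 lower genes were 6 of 13 in ATP synthase (ATP3, ATP4, ATP7, ATP14, ATP16 and TIM11), 3 of 8 in cytochrome c oxidase (COX7, COX12 and COX13), 2 of 8 in the bc1 complex (QCR7 and QCR8), and NDE2 and CYC7. Their differences ran from −0.93 (COX7) to −0.42 (NDE2), and ATP7 had the smallest adjusted p of the 13, 0.000803. The 3 higher genes were CYC1 at 0.77 ± 0.12 (adjusted p = 9.93e-05), NDE1 at 0.45 ± 0.12 (adjusted p = 0.0132) and SDH3 at 0.40 ± 0.12 (adjusted p = 0.0265).

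ATP7 is an example of how the differences were made up, though not all 13 were alike. It had 181, 165 and 173 CPM in heated S121A cells and 173, 222 and 208 CPM in heated WT cells, and its unstressed values are given above. The heated libraries overlapped between the genotypes, while the unstressed ones did not. All 13 genes had a higher mean in S121A than in WT cells without stress, in 12 of them with no overlap between libraries. The exception was CYC7, at 0.07 ± 0.15 without stress (adjusted p = 0.78). In heat 11 of the 13 had a lower mean in S121A cells, and for 2 of them, CYC7 and ATP4, every S121A library was below every WT library. NDE2 had every heated S121A library above every heated WT library. The heated libraries of COX12 overlapped between the genotypes, at 62.1, 57.1 and 50.4 CPM in S121A cells and 53.8, 74.0 and 65.8 CPM in WT cells. Its unstressed libraries did not, at 46.2, 46.5 and 46.4 (S121A) and 33.2, 33.8 and 39.1 CPM (WT). The response difference and the unstressed comparison share the unstressed libraries, so neither supports the other. In 12 of the 13 genes WT heat replicate 1 was the lowest of the 3 heated WT libraries, and leaving it out gave 9 members higher and 15 lower in the heat response difference. With library totals alone, 1 member was higher in place of 3. Leaving out single libraries ended the call of SDH3 and ATP16 in 7 of 12 omissions each, of COX7 in 6 and of CYC7 in 3.

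Gene length moved with these differences. Of the 38 members 24 (63.2%) have coding sequences of up to 600 bases, against 19.6% of the 5860 tested genes with a coding length, and 10 of the 13 lower genes are among them. Over all genes the median heat response difference was −0.11 for coding lengths up to 300 bases, −0.03 for longer ones up to 600, 0.04 for those above 600 and up to 1200, and 0.07 above 1200. The shares of all genes called lower were 14.3%, 12.1%, 8.85% and 4.92%, against 4 of 9, 6 of 15, 2 of 7 and 1 of 7 members. In the unstressed comparison of S121A with WT cells, the same medians were 0.15, 0.10, −0.01 and −0.09. The part of length in these results was not tested directly. With offsets that take out a length trend in each library, chosen after the data were seen, 4 members were higher and 10 lower in the heat response difference. QCR8, COX7 and ATP16 then lost their call (adjusted p = 0.0544, 0.102 and 0.0908) and COX9 gained one, at 0.46 (adjusted p = 0.0124). Of the differences between S121A and WT cells, those of NDE1 without stress (adjusted p = 0.23), ATP18 in salt (adjusted p = 0.107) and ATP4 in heat (adjusted p = 0.0737) lost their call with these offsets. COR1 without stress (adjusted p = 0.0269) and NDE1 in heat (adjusted p = 0.0145) gained one.

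**Figure D5:**
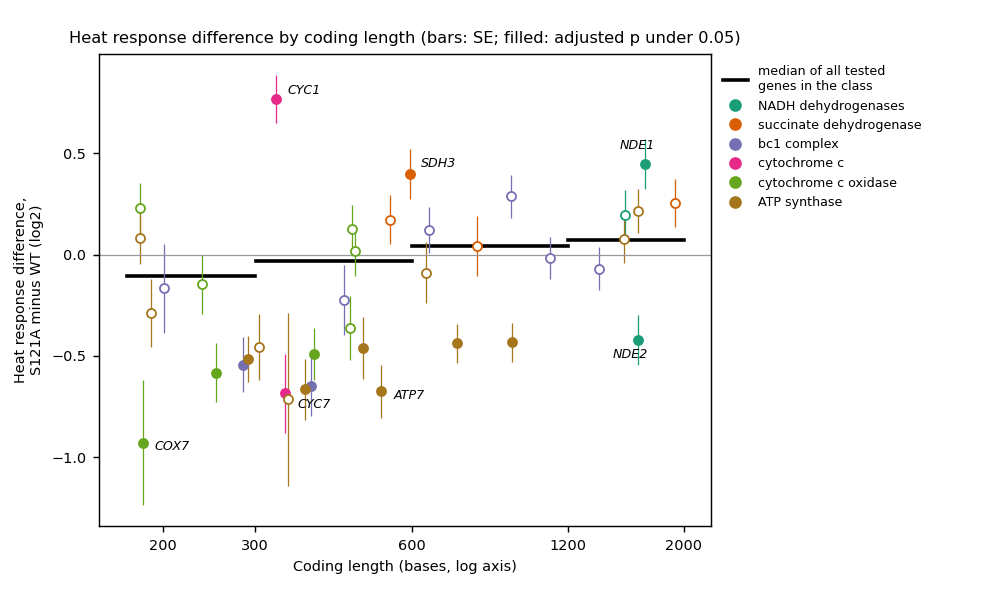
Heat response difference, S121A minus WT, in log2 units (vertical axis) against coding length in bases (horizontal log axis) for the 38 genes, coloured by complex, with bars for SE, filled points for adjusted p under 0.05 and black lines for the median of all tested genes in 4 length classes. Most members of up to 600 bases lie below 0 and below the black lines, and CYC1 lies above them.

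Genes around the complexes were counted from lists of regulators, assembly factors, cofactor synthesis and carriers. Of 7 regulators, 6 (S121A) and 4 (WT) rose in heat, where 40.3% (S121A) and 40.6% (WT) of all tested genes were called as higher, and 5 (S121A) and 4 (WT) in salt, where 35.8% (S121A) and 36.3% (WT) were. HAP4, the activating subunit of the CCAAT-binding complex, had 131, 151 and 142 CPM in heated S121A cells and 94.0, 99.5 and 105.2 CPM in heated WT cells. It had 79.6, 71.6 and 77.3 CPM (S121A) and 51.8, 45.3 and 45.02 CPM (WT) in salt, and 52.9, 56.4 and 55.5 (S121A) and 50.7, 49.7 and 51.1 CPM (WT) without stress. The S121A libraries were all above the WT libraries in each condition, and HAP4 passed as higher in S121A cells in heat, at 0.50 ± 0.073 (adjusted p = 2.25e-05), and in salt, at 0.69 ± 0.074 (adjusted p = 9.64e-07). HAP2, its DNA-binding partner, rose by 1.65 in heated S121A and 1.62 in heated WT cells. The 3 inhibitors and stabilisers of ATP synthase rose in all 4 responses, led by STF2, which had 734, 644 and 911 CPM in heated S121A and 854, 1250.1 and 1217 CPM in heated WT cells, against 49.5, 52.3 and 45.1 (S121A) and 44.1, 39.4 and 49.6 CPM (WT) without stress. STF2 was lower in S121A than in WT cells in heat, at −0.54 ± 0.14 (adjusted p = 0.00653).

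The counts that follow stand beside 40.3% (S121A) and 40.6% (WT) of all tested genes called as higher and 39.7% (S121A) and 39.3% (WT) called as lower in heat. Of 16 oxidase assembly factors, 12 rose and 0 fell in heated S121A cells and 13 rose and 1 fell in heated WT cells. In salt 11 of them rose in either genotype, against 35.8% (S121A) and 36.3% (WT) of all tested genes. Of 8 ATP synthase assembly factors, 4 rose and 1 fell in heated S121A and 5 rose and 2 fell in heated WT cells, and those that rose were not far from the share of all genes. Of 7 bc1 and cytochrome c maturation factors, 4 rose in heated S121A cells, and 2 rose and 1 fell in heated WT cells, again near that share. All 7 succinate dehydrogenase assembly factors and paralogs rose in heat in both genotypes. Of 11 ubiquinone synthesis genes, 9 rose and 1 fell in heated S121A and 10 rose and 1 fell in heated WT cells, led by COQ4, a ubiquinone synthesis protein, at 2.38 (S121A) and 2.35 (WT), and 7 of 11 were lower in S121A than in WT cells in salt, against 9.19% of all genes. Of 8 heme synthesis genes, 4 rose and 2 fell in heated S121A and 2 rose and 4 fell in heated WT cells. HEM15, the ferrochelatase that makes heme, was lower in S121A than in WT cells in heat at −0.28 ± 0.092 (adjusted p = 0.0237), in salt at −0.56 ± 0.092 (adjusted p = 0.000137) and without stress at −0.47 ± 0.092 (adjusted p = 0.00128). All 5 ADP/ATP, phosphate and outer membrane carriers rose in heated S121A cells and 4 of 5 in heated WT cells.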

How the data were processed

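Raw counts per gene, as the authors deposited them, were used without change for 18 libraries (6 groups of 3, as labelled), and every column was matched to its sample. RNA was extracted with hot phenol and made into stranded poly(A) libraries sequenced paired-end, per the labels' protocols. TopHat2 2.0.1, featureCounts 1.4.6-p5, DESeq2 1.10.1 and the builds sacCer3 and R64 are named in the submitters' processing notes. The strand setting, the treatment of multiply mapped reads and whether reads or fragments were counted are not given in the sources used here.

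In R 4.3.3, filterByExpr kept 6395 of 6746 features (the rest held 0.00142% of counts) and TMM scaled them. A robust quasi-likelihood fit in edgeR 4.0.16 took in the 18 libraries with a mean for each of the 6 groups, and comparisons were two-sided contrasts called at a Benjamini-Hochberg adjusted p under 0.05 over all tested genes. The SE of a log2 fold change rests on a spread shared by all libraries. Floors of 3 counts cover counting error only. Of all features 6025 matched the R64 annotation, which gave coding lengths and promoter windows. No annotated gene overlaps a member. The script was tested on simulated data.

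Fully described members are the highest and lowest of each complex per comparison, those called between genotypes, and the paralog pairs. Of the pathway lists, up to 2 called genes of at least 10 CPM could be named per comparison, and a few of these are given. The members and lists were chosen with earlier results of these data known. Over all groups replicate numbers did not pair the libraries (17 of 45 same-numbered pairs had a correlation over 0.1). Of the comparisons made, S121A with WT cells in salt was the one where every such pair was over 0.1, so its blocked values are given. Alternatives were library totals, RLE factors, no filter, DESeq2 1.42.0, only the compared groups, the replicate block (also on the salt libraries alone), single libraries left out and length-trend offsets.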

Additional observations from a re-analysis of the deposited data

Results flagged for a closer look

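The stress response differed between S121A and WT cells, by the interaction term of the edgeR model, for 3 members in salt and 16 in heat. Values are log2 differences of the S121A response minus the WT response ± SE, with Benjamini-Hochberg adjusted p over all tested genes, and no explanation of them was tested.

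In salt the difference was 0.79 ± 0.12 for CYC1 (adjusted p = 0.000162) and 0.53 ± 0.12 for NDE1 (adjusted p = 0.0089), both of which fell less in S121A cells. It was −0.59 ± 0.14 for QCR8 (adjusted p = 0.00871), which rose less.

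In heat the higher values were 0.77 ± 0.12 for CYC1 (adjusted p = 9.93e-05), 0.45 ± 0.12 for NDE1 (adjusted p = 0.0132) and 0.40 ± 0.12 for SDH3 (adjusted p = 0.0265). The minor paralogs CYC7, at −0.69 ± 0.19 (adjusted p = 0.0157), and NDE2, at −0.42 ± 0.12 (adjusted p = 0.0192), rose less in S121A cells. So did the bc1 subunits QCR7, at −0.65 ± 0.15 (adjusted p = 0.00316), and QCR8, at −0.54 ± 0.14 (adjusted p = 0.00705). Of the oxidase subunits COX7 was at −0.93 ± 0.31 (adjusted p = 0.0398), COX12 at −0.58 ± 0.15 (adjusted p = 0.00692) and COX13 at −0.49 ± 0.13 (adjusted p = 0.01). In the rotor stalk of ATP synthase ATP3 was at −0.43 ± 0.097 (adjusted p = 0.00336) and ATP16 at −0.46 ± 0.15 (adjusted p = 0.0351). In its stator stalk ATP4 was at −0.44 ± 0.096 (adjusted p = 0.00264), ATP7 at −0.68 ± 0.13 (adjusted p = 0.000803) and ATP14 at −0.67 ± 0.15 (adjusted p = 0.00371), and the membrane subunit TIM11 was at −0.52 ± 0.11 (adjusted p = 0.00244).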

How the results depend on the processing

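Settings that moved a count of called members by over 1.5 times, or turned a called value, are given here. With library totals alone, S121A NaCl gave 13 higher and 13 lower, WT NaCl 5 lower, S121A heat 20 higher and 7 lower, WT heat 3 lower, S121A against WT 18 higher and 0 lower without stress and 2 lower in salt, and the response differences 5 lower in salt and 1 higher in heat. The share of higher calls among all called genes became 26% in place of 50.4% (S121A heat), 34.6% in place of 50.8% (WT heat), 33.4% in place of 50.3% (S121A NaCl), 21.8% in place of 47.7% and 28.6% in place of 49.8% (heat against salt, S121A and WT), 83.1% in place of 39.1% (S121A against WT without stress), 45.6% in place of 81.6% and 29% in place of 68.7% (NaCl and heat response differences). The values that changed sign under it were, in S121A heat, NDE1 −0.14, COX4 −0.11, COX9 −0.045, COX12 −0.32, ATP3 −0.20, ATP4 −0.27, ATP5 −0.59, ATP14 −0.024, ATP18 −0.25 and TIM11 −0.13. In WT heat they were NDE1 −0.37, COX9 −0.053, ATP5 −0.29 and ATP18 −0.11, in S121A NaCl ATP1 −0.018, ATP3 −0.20, ATP4 −0.25, ATP15 −0.013 and TIM11 −0.28, and in S121A heat against NaCl COX12 −0.075, ATP3 −0.00029 and ATP4 −0.021. Sign changes of values past the threshold under neither setting are not counted.

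With only the compared groups in the fit, S121A NaCl had 7 lower, S121A against WT without stress 19 higher, and S121A against WT in heat 1 higher and 2 lower. DESeq2 gave 3 lower for S121A against WT in NaCl, the replicate block 2 lower, and that block in a fit of the salt libraries alone 8 higher. Same-numbered libraries correlated between −0.448 and 0.382. Length-trend offsets gave 10 higher and 2 lower for S121A against WT without stress, 4 higher and 1 lower in salt and 7 higher and 3 lower in heat, all within 1.5 times. Leaving out single libraries gave 1 to 2 lower for S121A against WT without stress and in NaCl, 1 to 8 higher and 2 to 9 lower in heat, and 2 to 9 higher and 10 to 15 lower in the heat response difference. The CYC7 to CYC1 ratio of S121A against WT ran from −0.54 to −0.40 with single libraries left out. With medians per group it was −0.50 (adjusted p = 0.187) and NDE2 to NDE1 was 0.36 (adjusted p = 0.202), neither past the threshold. The cause of these changes was not tested.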

Other observations

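CYB2, the lactate dehydrogenase that feeds electrons to cytochrome c, stood at 96.2, 88.7 and 106 CPM in heated S121A cells and 174, 172 and 166 CPM in heated WT cells, against 6.51, 6.17 and 5.75 CPM (S121A) and 4.68, 4.81 and 4.86 CPM (WT) without stress. Its log2 fold change in heat was 3.98 ± 0.088 in S121A cells and 5.16 ± 0.093 in WT cells. S121A libraries were all below WT libraries in heat, at −0.82 ± 0.076 (edgeR adjusted p = 9.55e-08), and in salt, at −0.82 ± 0.076 (edgeR adjusted p = 1.67e-07), and all above them without stress. COX26, a small protein bound to oxidase supercomplexes, had 68.5, 71.0 and 76.2 CPM in heated S121A cells and 64.4, 57.4 and 48.8 CPM in heated WT cells, against 6.49, 7.17 and 6.61 CPM (S121A) and 4.05, 4.04 and 4.84 CPM (WT) without stress.

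Of the 7 mitochondrially encoded subunits looked for, COX2 alone passed the filter on low counts, and it was listed at 0.0785, 2.43 and 0.135 CPM in heated S121A cells and 0.119, 0.159 and 0.206 CPM in heated WT cells. Its call as higher in the S121A heat response rests on the 1 library with 2.43 CPM.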
